A study of Mus musculus with 45 samples.

Results

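The genes described here are 10 genes of interleukin 1 and NF-kappaB dependent inflammation, taken by name from the 22080 genes of the expression table: the ligand genes Il1a and Il1b, their antagonist Il1rn, the receptor Il1r1, the cytokines Tnf and Il6, the chemokines Cxcl1, Cxcl2 and Ccl2, and the inhibitor Nfkbia. All 10 were in the table with 1 probe set each. Male C57BL/6 mice aged 7 weeks received 1 of 5 diets, with 8 mice per group: AIN-93 (Control), AIN-93 with 0.5% cholesterol (HCD), or HCD with 1% of the Ganoderma lucidum extract Gl-1, 1% of the extract Gl-2, or simvastatin at 0.03 g per 100 g of food (HCD+Sim). The mushrooms of the Gl-2 extract had grown on substrate with acetylsalicylic acid, those of Gl-1 had not, and all diets ended at day 43 after a fast without food and water. RNA of liver, kidney and brain was hybridized to Affymetrix mouse gene ST arrays, 3 per tissue and diet and 45 in all, where pools A and B held separate mice and pool C was a mixture of A and B. The 3 arrays of a group therefore stood for 2 separate pools. The p-values measure the spread between such arrays, pooled for each gene over the groups of all 3 tissues.

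Interleukin 1 alpha and beta are secreted or membrane-bound signals that bind the same receptor, encoded by Il1r1, and a receptor antagonist encoded by Il1rn occupies that receptor without signalling. The receptor, like that of tumour necrosis factor, leads to release of the transcription factor NF-kappaB from its inhibitor I-kappa-B alpha, encoded by Nfkbia, and NF-kappaB then raises transcription of cytokine and chemokine genes and of Nfkbia itself. In liver, Kupffer cells are a known source of interleukin 1 and tumour necrosis factor, while hepatocytes and other cells carry the receptor. In whole tissue, fewer cells of a type and less RNA per cell cannot be told apart.

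The tissue labels fitted their markers. The mean log2 expression of 8 hepatocyte markers was 12.87 to 13.03 on liver arrays and at most 8.21 elsewhere. For 8 kidney tubule markers it was 11.99 to 12.17 on kidney arrays and at most 6.25 elsewhere, and for 9 neuron, astrocyte and microglia markers 10.10 to 10.32 on brain arrays and at most 6.68 elsewhere. Array medians lay between 6.76 and 6.92. In liver, a list of 8 pancreas acinar markers stood at 7.94, 8.42 and 6.71 on the HCD+Sim arrays (pools A, B and C) against 6.41 to 6.65 on the other 12 arrays, and a list of 10 squamous epithelium markers at 6.47, 6.81 and 5.93 on the Control arrays against 5.68 to 6.09 on the others, so that 2 of the 3 arrays of either group stood clearly apart. Their part in the liver comparisons with HCD+Sim and with Control was not tested. Pool C lay between pools A and B in 31 of the 150 gene and group values of the 10 genes. Over the whole table it did so for 20.4% to 35.5% of genes by group, with a median of 4 of 15 groups per gene.

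Promoter sequences are shown for the 5 members that passed the adjusted p between Gl-2 and HCD in liver or kidney (below), and for Cxcl2, the neighbour of Cxcl1 on chromosome 5. Promoter entries from RefSeq (GRCm38.p6) were at hand for 9 of the 10 genes, Ccl2 being the other one. The 250 bases before the start site are given 5′ to 3′, and capitals mark matches to the kappaB consensus, the DNA motif of NF-kappaB, or to the AP-1 motif TGANTCA, which Fos and Jun proteins bind, each searched on both strands.
Cxcl1, chr5:90890995-90891244, plus strand: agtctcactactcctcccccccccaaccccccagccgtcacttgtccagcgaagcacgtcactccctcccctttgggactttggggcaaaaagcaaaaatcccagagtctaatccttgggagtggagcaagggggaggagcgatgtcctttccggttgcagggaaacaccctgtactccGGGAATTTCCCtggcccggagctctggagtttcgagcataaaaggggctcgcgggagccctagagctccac
Cxcl2, chr5:90903649-90903898, plus strand: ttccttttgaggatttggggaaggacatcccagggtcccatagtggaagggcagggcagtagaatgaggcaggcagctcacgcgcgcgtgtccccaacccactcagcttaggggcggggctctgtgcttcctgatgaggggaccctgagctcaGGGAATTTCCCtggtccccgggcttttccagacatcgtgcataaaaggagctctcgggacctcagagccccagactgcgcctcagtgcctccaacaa
Nfkbia, chr12:55492648-55492897, minus strand: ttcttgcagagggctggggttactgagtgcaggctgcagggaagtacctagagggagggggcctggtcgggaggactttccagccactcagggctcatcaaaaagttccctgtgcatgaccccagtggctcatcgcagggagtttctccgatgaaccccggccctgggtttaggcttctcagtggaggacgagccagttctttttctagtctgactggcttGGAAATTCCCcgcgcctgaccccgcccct
Il1a, chr2:129309973-129310222, minus strand: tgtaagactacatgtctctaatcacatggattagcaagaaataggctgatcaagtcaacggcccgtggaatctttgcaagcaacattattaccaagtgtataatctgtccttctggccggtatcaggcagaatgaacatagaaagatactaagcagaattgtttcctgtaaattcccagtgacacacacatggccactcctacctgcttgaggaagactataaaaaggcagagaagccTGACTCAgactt
Il1b, chr2:129371140-129371389, minus strand: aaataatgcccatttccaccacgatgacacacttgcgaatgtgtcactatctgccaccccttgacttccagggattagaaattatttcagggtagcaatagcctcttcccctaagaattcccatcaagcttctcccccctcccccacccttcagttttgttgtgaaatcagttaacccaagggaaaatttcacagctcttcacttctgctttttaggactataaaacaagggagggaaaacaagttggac
Tnf, chr17:35202008-35202257, minus strand: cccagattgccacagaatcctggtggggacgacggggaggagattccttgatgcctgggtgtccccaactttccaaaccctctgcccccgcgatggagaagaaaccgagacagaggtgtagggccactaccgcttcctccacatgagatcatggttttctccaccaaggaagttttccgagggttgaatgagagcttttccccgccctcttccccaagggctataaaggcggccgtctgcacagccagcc
The kappaB match of Cxcl1 began at position -71 from the start site and that of Cxcl2 at -97, and each was read on both strands with the strands' matches overlapping, shifted by 1 base. With these matches aligned, 32 of 70 bases were the same in both windows (45.7%). Nfkbia held a kappaB match at -29 to -20, Il1a an AP-1 match at -12 to -6, and Il1b and Tnf neither. Of the 9 members searched, counting every RefSeq start of a gene, 5 (Il1r1, Il6, Cxcl1, Cxcl2 and Nfkbia) held a kappaB match and 3 (Il1a, Il1rn and Il6) an AP-1 match, while 8.23% and 7.82% of all 27025 genes with an entry did so when counted the same way. By single windows of this length the counts were 5 and 3 of 12 for the members, against 7.25% and 6.75% of all 32851. A match describes letters, not binding.

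On the Control diet the members differed among tissues, and liver had the higher level for all 10 genes. A gene was called differentially expressed (DE) if its log2 difference exceeded 0.7 in size and its limma p, adjusted by Benjamini-Hochberg over all genes, did not exceed 0.05. By this rule, 2 members were DE between liver and kidney, where 16.8% of all genes were, and 5 between liver and brain, where 32.7% were. None was DE between kidney and brain, where 30% of all genes were. On the adjusted p alone 6 members passed between liver and kidney, 8 between liver and brain and 5 between kidney and brain, against 48.4%, 70% and 59.1% of all genes, shares not far from those of the members. Leaving out 1 array, the adjusted p rose to up to 0.0878 for Il1b and 0.113 for Cxcl1 between liver and kidney and to 0.225 for Cxcl1 between kidney and brain. Il1r1 had the widest gap: it read 9.33, 9.37 and 9.46 in liver (pools A, B and C), 6.36 to 6.76 over all 15 kidney arrays and 5.96 to 6.32 over all 15 brain arrays. On Control the Il1r1 difference was 2.83 (standard error 0.11) between liver and kidney and 3.29 (0.11) between liver and brain. Il1a followed with 6.72, 6.78 and 6.62 in liver, 3.86 to 4.50 over all kidney arrays and 4.32 to 4.71 over all brain arrays, a difference of 2.47 (0.15) from kidney and 2.22 (0.15) from brain. Its kidney and brain levels lay below the 25th percentile of all values, 5.65, so that a true gap may be wider than these values and a diet response there would be hard to see. No liver array of any diet overlapped with kidney or brain for these 2 genes.

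The other members varied less with tissue. Nfkbia stepped down from liver over kidney to brain, with Control means of 9.33 ± 0.02, 8.69 ± 0.04 and 8.18 ± 0.07 (SD, n = 3), and the liver to brain difference of 1.15 (standard error 0.12) was DE. Cxcl1 had the same order, with a DE difference of 0.77 (0.13) between liver and brain, and so had Il1b, at 0.75 (0.14). For Il1b that call was lost without pool A of brain (0.67) or pool C of liver (0.64). Il1rn was 0.57 higher in liver than in kidney and 0.65 higher than in brain, below the fold threshold, with no overlap between the arrays of liver and those of either other tissue on any diet. Tnf (difference between liver and kidney 0.02), Il6 (0.07), Cxcl2 (0.11) and Ccl2 (0.20) did not pass the test between liver and kidney. Il6 stayed between 2.82 and 3.64 on all 45 arrays and Cxcl2 between 4.53 and 5.76, below or about that percentile. Changes in either would be hard to see, as for Il1b (4.85 to 5.40) and Tnf (5.25 to 5.64) in brain. In kidney the median of Il1b was 5.52 and that of Tnf 5.79, also below or about that percentile.

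**Figure D1:**
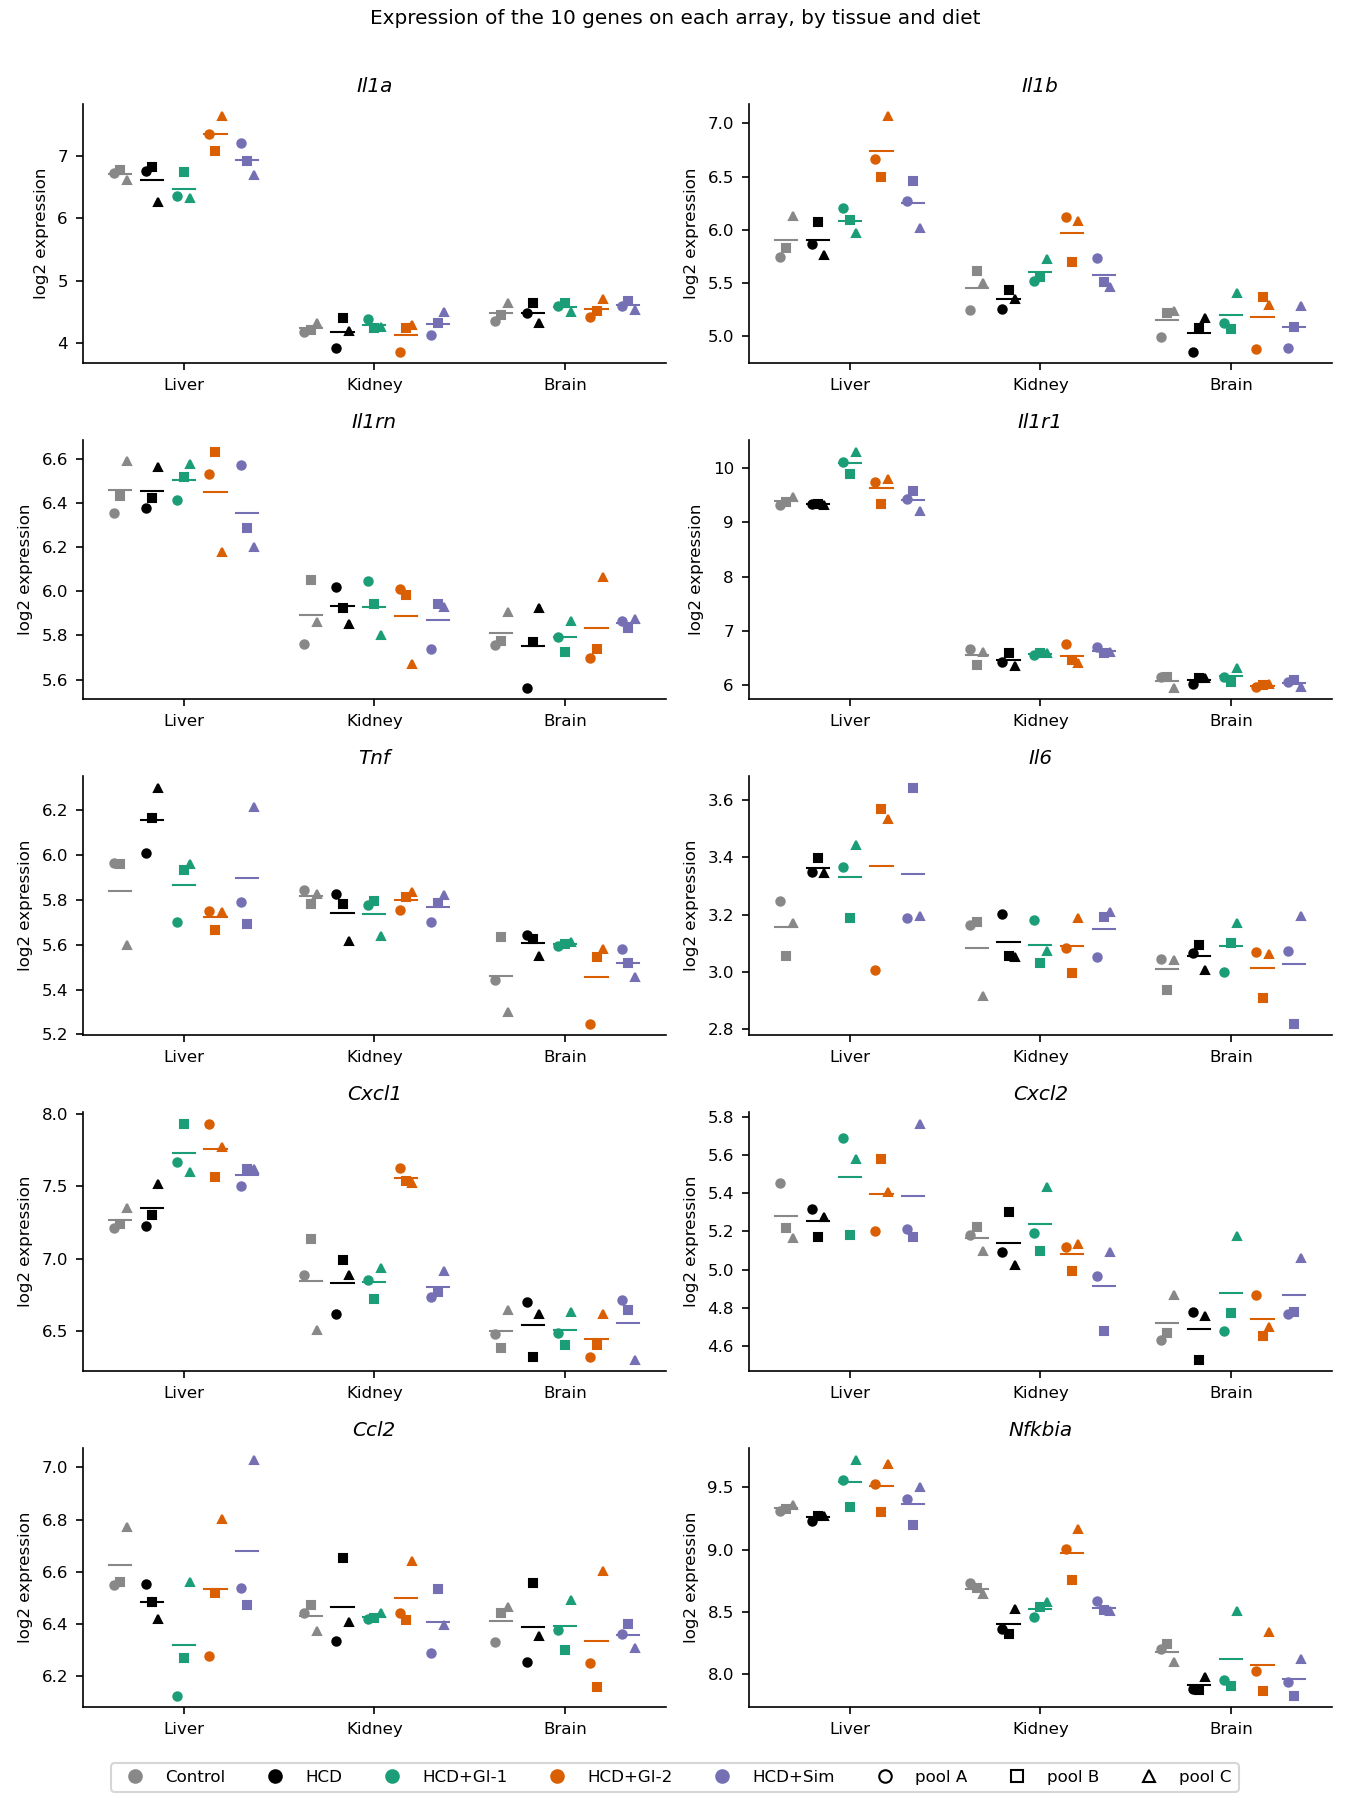
Log2 expression (y axis, its own range in each panel) of the 10 genes on all 45 arrays, by tissue (x axis) and diet (colour), with pools A, B and C as circles, squares and triangles and the group mean as a bar. The liver arrays stand apart for Il1a and Il1r1. The Gl-2 arrays lie above all others of the tissue for Il1b in liver and Cxcl1 in kidney, as do the Gl-1 arrays for Il1r1 in liver. For Il1a in liver Gl-2 has the highest mean, with arrays that overlap those of simvastatin.

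The first diet question was whether cholesterol itself moved these genes. It was not detected: comparing HCD with Control, 0 of the 10 members were DE in liver (0.245% of all genes were), 0 in kidney (0.0408%) and 0 in brain (0.0317%) by limma, and at an unadjusted p under 0.05 there was 1 member in each tissue, against 10.3%, 4.47% and 6.44% of all genes. In liver that was Tnf, the macrophage cytokine, which read 6.01, 6.17 and 6.30 on HCD and 5.96, 5.96 and 5.60 on Control. The HCD arrays were the higher ones without overlap, by 0.32 (standard error 0.11, adjusted p 0.158). In kidney and brain it was Nfkbia. HCD arrays read 8.36, 8.32 and 8.52 in kidney against 8.73, 8.69 and 8.64 on Control, a difference of -0.29 (0.12, adjusted p 0.972), and in brain 7.88, 7.87 and 7.98 against 8.20, 8.24 and 8.10, a difference of -0.27 (0.12, adjusted p 0.729). In liver, too, the 3 HCD arrays of Nfkbia (9.23 to 9.27) lay below the 3 Control arrays (9.31 to 9.36), by 0.08 on the log2 scale on average. The members whose HCD and Control arrays did not overlap were 3 in liver, 1 in kidney and 1 in brain, against 14.9%, 13.2% and 11.7% of all genes, and none of the 3 Nfkbia differences passed the test.

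The interleukin 1 ligands were the members that rose with Gl-2 in liver, while Tnf was lower. Comparing HCD+Gl-2 with HCD, 2 of the 10 members were DE, against 0.303% of all genes, and 3 passed on the adjusted p alone, against 1.7%. The median of the 10 members was 0.20, with 8 above 0, while the median of all genes was 0.01, with 52.0% above 0. The arrays of both groups did not overlap for 5 of the 10 members (Il1a, Il1b, Tnf, Cxcl1 and Nfkbia), against 15.2% of all genes, and in 4 of these 5 Gl-2 was the higher one.

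Il1b, the secreted ligand, read 6.67, 6.49 and 7.07 in liver under Gl-2. HCD arrays read 5.86, 6.07 and 5.77 and Control arrays 5.75, 5.83 and 6.13. All Gl-2 arrays lay above every other liver array, with pool C as the highest. Il1b rose by 0.84 against HCD (1.79-fold, standard error 0.14, adjusted p 0.000457 from limma) and by 0.84 against Control (0.14, adjusted p 0.00022), where 1 of 10 members was DE against 0.584% of all genes and 3 passed on the adjusted p alone against 2.86%. Against Gl-1, whose arrays read 6.20, 6.09 and 5.97, the difference was 0.66 (0.14, adjusted p 0.00821), under the fold threshold, with an adjusted p of up to 0.0854 without pool C of either group. Against simvastatin, with 6.27, 6.46 and 6.02, it was 0.49 (adjusted p 0.0824). The calls against HCD and Control did not hold without pool C of Gl-2, at 0.68 in both.

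Il1a, the ligand that also acts at the cell surface, read 7.35, 7.07 and 7.64 in liver under Gl-2 and 6.75, 6.82 and 6.26 on HCD. The groups did not overlap, while the lowest HCD array, pool C, stood apart from the other two. Il1a rose by 0.74 against HCD (1.67-fold, standard error 0.15, adjusted p 0.00241 from limma). The largest of its differences was that between the extracts: with 6.35, 6.74 and 6.32 under Gl-1, Il1a was 0.88 higher under Gl-2 (1.84-fold, 0.15, adjusted p 0.000702), the 1 of 10 members that was DE there, against 0.172% of all genes, while 3 (Il1a, Il1b and Il1r1) passed on the adjusted p alone, against 3.94%. Against Control the difference was 0.65 (adjusted p 0.00623, or 0.0921 without pool C of Gl-2), not DE, and against simvastatin (7.21, 6.91 and 6.69) 0.42 (adjusted p 0.182), with overlapping arrays. Without pool C of HCD the difference from HCD was 0.56 and without pool C of Gl-2 0.60, neither DE. With pools A and B only, the 2 separate pools, it was 0.42 (adjusted p 0.201), and its adjusted p was 0.101 in a fit of the liver arrays and 0.244 in a fit of the 2 groups.

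The antagonist and the other cytokines were not DE beside the ligands. Il1rn read 6.53, 6.63 and 6.18 in liver under Gl-2 and 6.38, 6.42 and 6.56 on HCD, a difference of -0.01 (95% interval -0.24 to 0.22). Tnf was the member that passed the adjusted p in the other direction: it read 5.75, 5.67 and 5.75 under Gl-2, below all HCD arrays, a difference of -0.44 (standard error 0.11, adjusted p 0.0189), not DE, and its adjusted p was over 0.05, up to 0.134, without pool B or C of HCD or pool B or C of Gl-2. HCD was the highest Tnf group in liver, and the same Gl-2 arrays differed from Control by -0.12 (adjusted p 0.701). The Tnf difference from the same 3 HCD arrays was -0.29 for Gl-1 (adjusted p 0.129) and -0.26 for simvastatin (adjusted p 0.289). Il6 (difference 0.00), Cxcl2 (0.14) and Ccl2 (0.05) did not pass. Nfkbia, at 9.53, 9.30 and 9.69 under Gl-2, lay above the HCD arrays by 0.25 (adjusted p 0.383).

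The receptor had another pattern, with its highest level under Gl-1. Il1r1 read 10.10, 9.90 and 10.30 in liver under Gl-1, against 9.33, 9.34 and 9.32 on HCD and 9.33, 9.37 and 9.46 on Control. No Gl-1 array overlapped with an array of any other diet, and the 3 HCD arrays differed by no more than 0.02 among themselves. Il1r1 rose by 0.77 against HCD (1.71-fold, standard error 0.11, adjusted p 2.23e-05 from limma), as 1 of 10 members against 0.163% of all genes, and by 0.71 against Control (0.11, adjusted p 4.34e-05), as 1 of 10 against 0.322%, with 2 of 10 (Il1r1 and Cxcl1) past the adjusted p alone, against 3.58%. Against simvastatin, at 9.43, 9.58 and 9.20, the difference was 0.70 (0.11, adjusted p 0.000115), just short of the fold threshold, so that 0 of 10 members were DE and 1 passed on the adjusted p alone, against 0.249% and 4.09% of all genes.

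Gl-2 gave Il1r1 values of 9.75, 9.33 and 9.80, with pools A and C above HCD and pool B within it. Gl-2 differed from Gl-1 by -0.47 (standard error 0.11, adjusted p 0.00889) and from HCD by 0.30 (adjusted p 0.170). The first was not past the adjusted p without pool C of Gl-1 or pool B of Gl-2 (up to 0.139). The 2 extracts thus differed in opposite directions for ligand and receptor, Il1a being higher under Gl-2 and Il1r1 higher under Gl-1. Without pool C of Gl-1 the Il1r1 difference was 0.67 from HCD and 0.62 from Control, neither DE, and without pool A of Control it was 0.69 from Control.

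Markers of other liver cells moved with the Gl-1 group. The mean level of 8 endothelial markers was 8.33 to 8.50 under Gl-1, below HCD (8.57 to 8.63) and Control (8.51 to 8.59) without overlap, with 0 of 8 genes above HCD (median difference -0.18). For 8 stellate cell and fibroblast markers it was 8.22 to 8.29 against 8.37 to 8.43 on HCD and 8.47 to 8.56 on Control, again without overlap, with 1 of 8 genes above HCD (median -0.21). None of these genes was DE against HCD (0.163% of all genes were), and 1 stellate marker was DE lower against Control (0.322% of all genes were DE). Macrophage markers had a median of 0.08 and neutrophil markers of -0.07 against HCD. The part of these shifts in the Il1r1 difference was not tested.

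The rise of Il1r1 with Gl-1 was larger in liver than in the other tissues. Its difference from HCD was 0.12 in kidney and 0.07 in brain, and the liver value exceeded these by 0.65 (standard error 0.15, adjusted p 0.0297) and 0.70 (0.15, adjusted p 0.0213), in tests where 0.389% and 0.362% of all genes passed. The adjusted p of the first missed 0.05 in 10 of the 12 fits that left out 1 array (all but those without pool B of liver Gl-1 or pool C of kidney HCD). That of the second did so in 5 of 12, those without pool B or C of brain HCD, pool B of brain Gl-1, pool A of liver HCD or pool C of liver Gl-1. For Il1a and Gl-2, the liver difference exceeded that of kidney by 0.78 (adjusted p 0.0706) and that of brain by 0.67 (adjusted p 0.144), neither past the test.

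**Figure D2:**
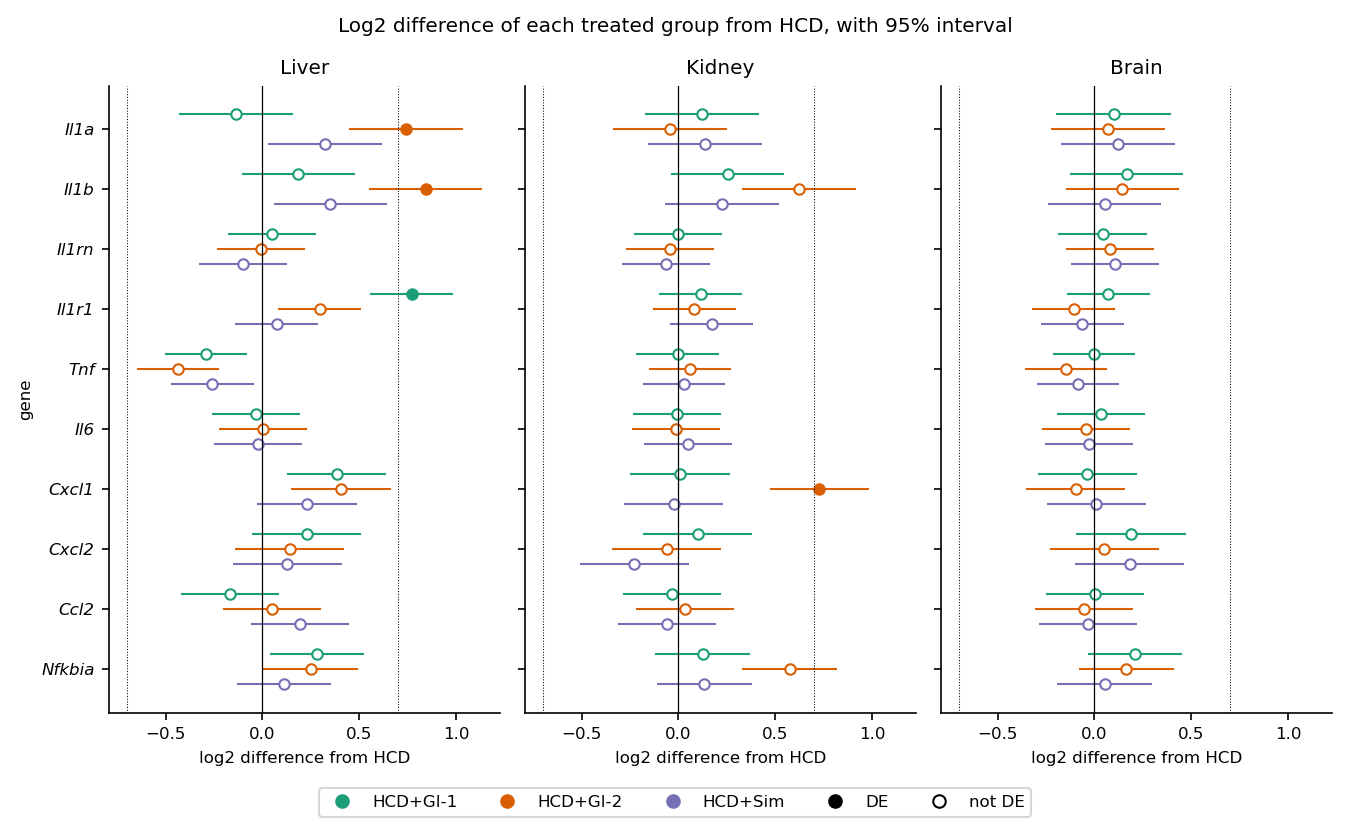
Log2 difference (x axis) of each of the 3 supplemented diets from HCD for the 10 genes (y axis) in the 3 tissues, with 95% intervals from limma; filled points are DE and dotted lines mark 0.7 in either direction. The filled points are Il1a (0.74) and Il1b (0.84) under Gl-2 and Il1r1 (0.77) under Gl-1 in liver, and Cxcl1 (0.73) under Gl-2 in kidney.

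Simvastatin, the statin drug of the design, made none of the members DE against HCD. In liver 0 of 10 were DE by limma (0.258% of all genes were) and 3 had an unadjusted p under 0.05, against 11.7% of all genes. These were Il1a, 0.33 above HCD (adjusted p 0.355), Il1b, 0.35 above HCD (adjusted p 0.296), and Tnf, given above. In kidney 0 of 10 were DE (0.14% of all genes were), with 0 at an unadjusted p under 0.05, against 6.19% of all genes. Gl-1 in kidney likewise left 0 of 10 DE against HCD (0.131% of all genes were) and 0 at an unadjusted p under 0.05, against 4%.

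In kidney the chemokine Cxcl1, which attracts neutrophils, was the 1 member that was DE with Gl-2. It read 7.62, 7.53 and 7.52 under Gl-2, 6.62, 6.99 and 6.89 on HCD and 6.89, 7.14 and 6.50 on Control. Gl-1 gave 6.85, 6.72 and 6.94 and simvastatin 6.74, 6.77 and 6.91. All 3 Gl-2 arrays lay above every other kidney array, and the spread among them was narrow (SD 0.06) beside that of HCD (0.19) and Control (0.32).

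Cxcl1 rose in kidney by 0.73 against HCD (1.66-fold, standard error 0.13, adjusted p 0.000419 from limma), by 0.72 against Gl-1 (adjusted p 0.0009), by 0.75 against simvastatin (adjusted p 0.000404) and by 0.72 against Control (adjusted p 0.000768). It was the 1 of 10 members that was DE in each of these comparisons, which share the Gl-2 arrays and in which 0.335%, 0.181%, 0.222% and 0.217% of all genes were DE. The value against HCD was 0.62 without pool A of HCD and 0.70 without pool A of Gl-2, that against Gl-1 0.66 without its pool B and 0.69 without pool A of Gl-2, and that against Control 0.55 without its pool C and 0.68 without pool A of Gl-2, none of them DE.

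Nfkbia and Il1b were higher beside it in kidney under Gl-2, both past the adjusted p and under the fold threshold, so that 3 of 10 members passed on the adjusted p alone against 0.996% of all genes. Each of these calls was lost when single arrays were left out: that of Nfkbia without pool B of HCD or pool C of Gl-2 (adjusted p up to 0.106), and that of Il1b without pool A or C of HCD or pool A or C of Gl-2 (up to 0.149), while without pool B of Gl-2 Il1b was DE (0.76, adjusted p 0.00495). Nfkbia, the NF-kappaB inhibitor and target, read 9.01, 8.76 and 9.16 under Gl-2, above all other kidney arrays, and was 0.57 higher than HCD (standard error 0.12, adjusted p 0.00587). The same arrays were 0.29 above Control (adjusted p 0.440). Il1b read 6.12, 5.70 and 6.08 under Gl-2 and 5.26, 5.43 and 5.34 on HCD, with no overlap, and was 0.62 higher (0.14, adjusted p 0.0164). These HCD values lay below the 25th percentile of all values, 5.65, so that the true size of the difference is uncertain. Pool B of Gl-2 lay within the Gl-1 and simvastatin arrays of Il1b, which read 5.52, 5.56 and 5.72, and 5.74, 5.51 and 5.47.

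In liver Cxcl1 read 7.93, 7.56 and 7.77 under Gl-2 and 7.67, 7.93 and 7.60 under Gl-1, both above Control at 7.21, 7.24 and 7.35. The differences from Control were 0.49 (standard error 0.13, adjusted p 0.0221) for Gl-2 and 0.47 (0.13, adjusted p 0.0304) for Gl-1, under the fold threshold. Both had an adjusted p over 0.05 without pool A or B of Control, the first also without pool A or C of Gl-2 (up to 0.140) and the second without pool A or B of Gl-1 (up to 0.0980). The differences from HCD were 0.41 (adjusted p 0.101) and 0.38 (adjusted p 0.0939). The 2 extracts differed by 0.02 for Cxcl1 in liver (95% interval -0.23 to 0.28) and by 0.72 in kidney. In brain Cxcl1 stayed between 6.30 and 6.71 on all diets, and its Gl-2 response in kidney exceeded that in brain by 0.82 (0.18, adjusted p 0.0142), in a test that 0.466% of all genes passed. That call was lost in 5 of 12 fits that left out 1 array, pool A or C of brain HCD, pool A of brain Gl-2, pool A of kidney HCD or pool A of kidney Gl-2 (adjusted p up to 0.0881). The responses in liver and kidney differed by -0.32 (0.18, adjusted p 0.648), which did not pass. Cxcl2, with the same kappaB letters in its promoter window and next to Cxcl1 in the genome, read 5.12, 4.99 and 5.13 in kidney under Gl-2 and 5.09, 5.30 and 5.03 on HCD, a difference of -0.06 (95% interval -0.34 to 0.22). All kidney arrays of Cxcl2 (4.68 to 5.43) lay below the 25th percentile of all values, 5.65, so that a change would be hard to see. Ccl2, which attracts monocytes, differed by 0.04 in kidney under Gl-2.

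In brain no member passed in any of the 10 comparisons of diets. Of 100 tests of members by limma, 0 were DE and 0 passed on the adjusted p, against 0.0290% and 0.177% of all gene tests, and 1 had an unadjusted p under 0.05 (Nfkbia, HCD against Control), against 7.66% of all gene tests. In liver, 6 of the 100 tests of members were DE, over 3 members, against 0.294% of all gene tests, and in kidney 4 of 100, all Cxcl1, against 0.135%. The largest brain difference from HCD among the treated groups was that of Nfkbia under Gl-1 (0.21, adjusted p 0.949).

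Of the other genes of the pathway, none was DE in liver under Gl-2, where 0.303% of all genes were, and 1 in kidney, where 0.335% were. At such shares, lists of this size would hold hardly any DE gene, so the counts alone do not show a quiet pathway. In liver under Gl-2, none of the 18 other genes of the interleukin 1 family and the inflammasome was DE (median difference from HCD -0.06), none of the 9 receptors for the cytokines and chemokines (median 0.02), none of the 17 adaptors and kinases between receptor and NF-kappaB (median 0.03), none of the 13 NF-kappaB subunits and inhibitors (median -0.02) and none of the 28 other NF-kappaB target genes (median 0.09). In kidney under Gl-2 the medians of these lists were -0.01, -0.05, 0.01, 0.07 and 0.04, and 1 gene was DE, Ptgs2, the inducible prostaglandin synthase, which was 0.94 higher (standard error 0.20, adjusted p 0.00673). Nfkbiz, a nuclear relative of the NF-kappaB inhibitors, passed the adjusted p without being DE in both tissues, 0.54 higher in liver (adjusted p 0.00544) and 0.45 in kidney (adjusted p 0.0395). With Gl-1 in liver, the comparison in which the receptor rose, 0 genes of the 5 lists were DE (0.163% of all genes were). Irak4, a kinase directly below the interleukin 1 receptor, passed the adjusted p at 0.42 (adjusted p 0.00242), and Il23a at -0.37 (adjusted p 0.0477). Ptgs2, Nfkbiz, Irak4 and Il23a were picked after their values were seen.

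**Figure D3:**
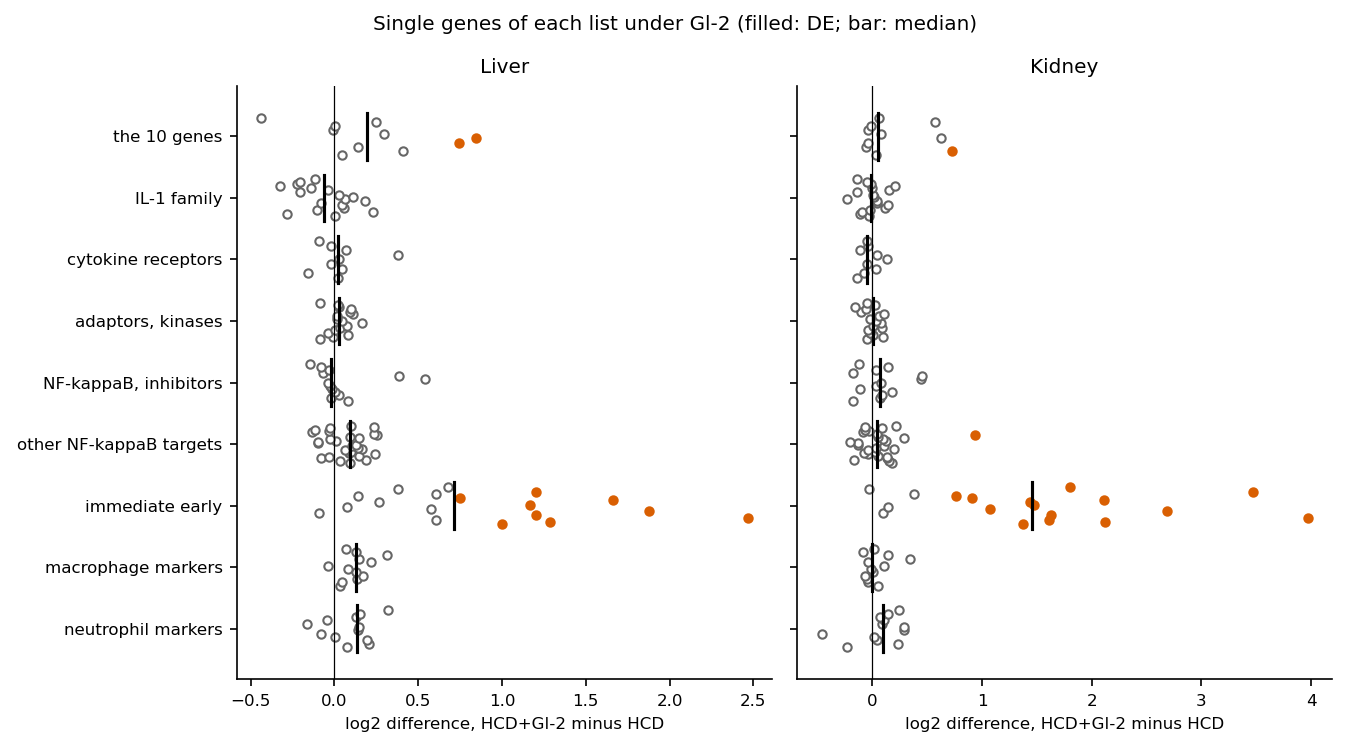
Log2 difference of HCD+Gl-2 from HCD (x axis) for the 10 genes and for the genes of 8 lists (y axis) in liver and kidney; filled points are DE and bars mark the median of the list. In the immediate early list 9 of 18 genes are DE in liver and 14 of 18 in kidney, against 0.303% and 0.335% of all genes. The pathway lists centre near 0, and the macrophage and neutrophil marker lists in liver lie somewhat above it.

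Immediate early genes, which encode short-lived transcription factors and their like and answer many stimuli within minutes, rose on the same arrays. In liver under Gl-2, 9 of 18 were DE against HCD, all higher (median of the list 0.71), where 0.303% of all genes were. In kidney under Gl-2, 14 of 18 were (median 1.46), where 0.335% of all genes were. Under Gl-1 in liver 0 were, where 0.163% of all genes were. At that share a list of this size would hold hardly any DE gene. The mean level of the list was 8.34, 7.44 and 8.67 on the liver Gl-2 arrays (pools A, B and C), against 7.23 to 7.30 on HCD. The order of the pools was that of Il1b and of Il1a: pool C had the highest value and pool B the lowest in all 3. Egr1, the leading gene of the list in both tissues, read 10.72, 6.98 and 11.16 on those arrays and 7.14, 7.07 and 7.25 on HCD. Pool B of Gl-2 lay within or below the HCD arrays for Egr1, Fos (6.55) and Jun (7.29). It lay above every HCD array for the list genes Atf3 (7.04) and Socs3 (8.10), and for Il1b (6.49) and Il1a (7.07). Socs3 was not DE there, and its Gl-2 arrays read 7.81, 8.10 and 7.89, with pool B as the highest. Pool B was also its highest array under Gl-1 (8.18) and simvastatin (8.08). In kidney the list mean was 8.69, 8.35 and 8.76 under Gl-2 against 7.09 to 7.11 on HCD, and the leading differences were those of Egr1 (3.97), the nuclear receptor gene Nr4a1 (3.47), the AP-1 subunit genes Fos (2.69) and Jun (2.11), Btg2 (2.13), Zfp36 (1.80), Egr2 (1.62), Dusp1 (1.61), Ier2 (1.48) and Ier3 (1.43). In liver the DE genes of the list were Egr1 (2.47), Fos (1.88), Jun (1.67), Btg2 (1.29), Egr2 and Nr4a1 (both between Btg2 and Ier2 in size), Ier2 (1.17), Atf3 (1.00) and Junb (0.75). Under simvastatin the list mean was 7.39 to 7.64 in liver and 7.19 to 7.37 in kidney, both above HCD without overlap. Pool B of Gl-2 in liver lay within that liver range. The part of the immediate early response in the cytokine differences was not tested.

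**Figure D4:**
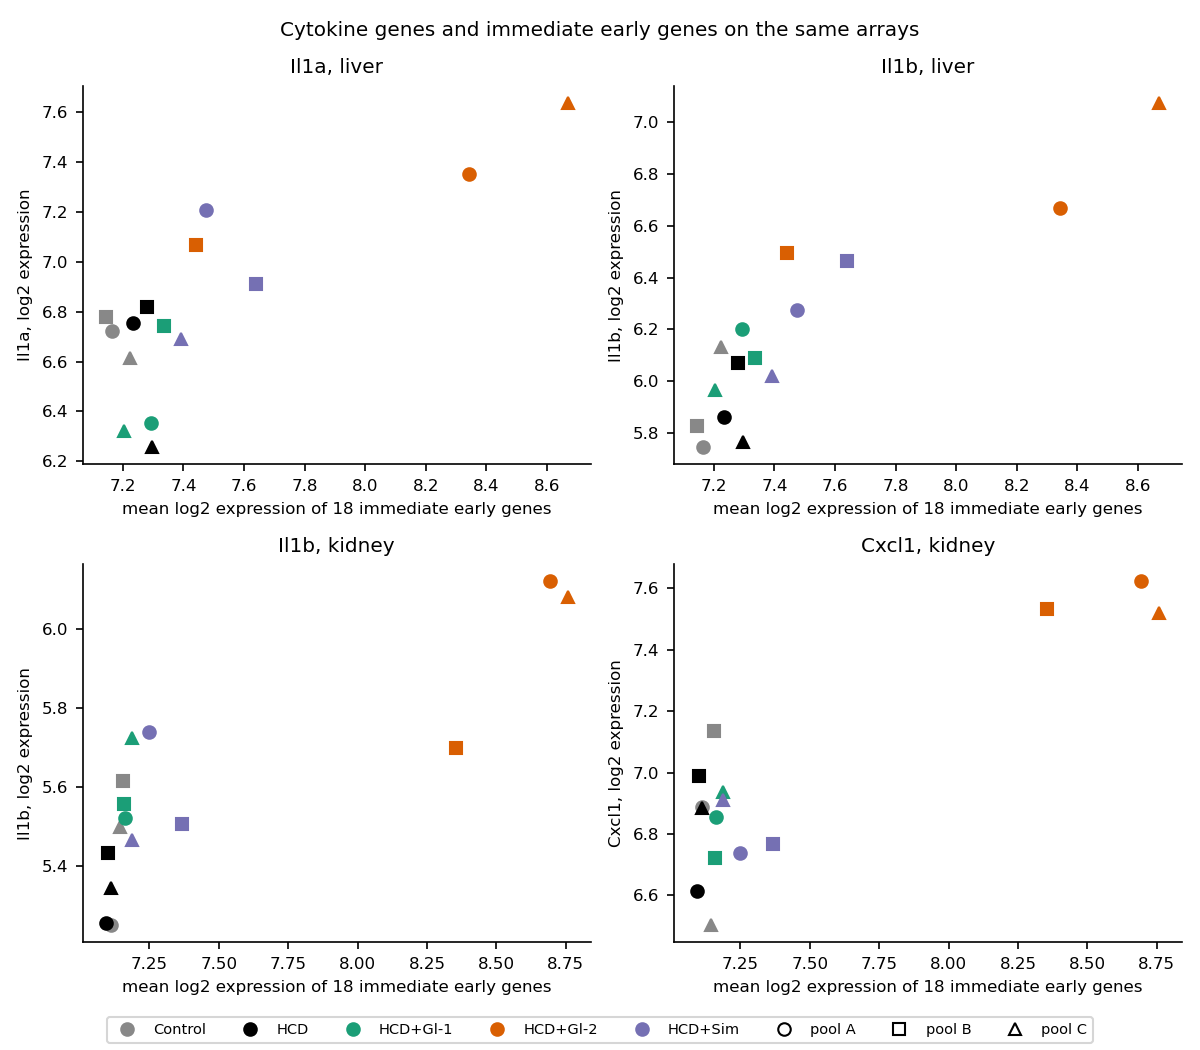
Log2 expression of Il1a and Il1b in liver and of Il1b and Cxcl1 in kidney (y axis) against the mean log2 expression of 18 immediate early genes (x axis), 1 point per array, coloured by diet and shaped by pool. The Gl-2 arrays lie to the right, except pool B in liver at 7.44, which is above HCD for the list mean as well as for Il1a (7.07) and Il1b (6.49). That array lies within the liver simvastatin arrays for the list mean (7.39 to 7.64) and Il1a (6.69 to 7.21). For Il1b it lies above them (6.02 to 6.46).

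The genes most like the DE members over the 15 arrays of the tissue were in part of the immediate early kind. For Il1b in liver these included Atf3, a stress-induced transcription factor gene (Pearson r 0.91), Tob1 (0.88), Trib1 (0.88) and Brpf3 (0.88). For Il1a in liver they were the AP-1 subunit gene Fosl2 (0.88), Slc25a25 (0.87), Smad7 (0.87), Junb (0.87) and Thbs1 (0.85). For Cxcl1 in kidney they were Fosb (0.93), Vasp (0.92), Ier2 (0.91), Plk3 (0.90) and 1810013L24Rik (0.90). Il1r1 in liver had a set of its own: Snx10 (0.97), Ndufaf4 (0.94), B3galt1 (0.92), Paxbp1 (0.92) and Rbbp8 (0.90), none of which is on the immediate early list. These correlations describe 15 arrays that share pools and normalization and of which 3 form the group that stands out. Beside the members, Atf3 was 1.00 higher in liver under Gl-2 than on HCD, which was DE, and B3galt1 0.78 higher under Gl-1, DE as well.

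Markers of the cells that make interleukin 1 were set beside these values. Of 12 Kupffer cell and macrophage markers, 0 were DE in liver under Gl-2 and 11 were above HCD, with a median of 0.13. Of all genes, 0.303% were DE and 52.0% were above HCD, with a median of 0.01. The mean level of the macrophage markers was 8.26, 8.33 and 8.06 on Gl-2 arrays, 8.10, 8.14 and 8.05 on HCD, and 8.37, 8.48 and 8.30 on Control. Of 12 neutrophil markers 0 were DE (median 0.14), with a mean level of 5.66 to 5.78 on Gl-2 and 5.55 to 5.75 on HCD. In kidney, neutrophil markers had a mean of 5.42 to 5.54 under Gl-2 and 5.36 to 5.44 on HCD (median difference 0.10, 0 of 12 DE), and macrophage markers 6.26 to 6.37 and 6.27 to 6.30. Under Gl-2 against HCD, 0.303% of all genes were DE in liver and 0.335% in kidney. None of the 9 monocyte and dendritic cell markers, 12 lymphocyte markers, 8 endothelial markers or 8 stellate cell and fibroblast markers was DE in either. In liver, however, the mean level of the endothelial markers was 8.38 to 8.48 under Gl-2 against 8.57 to 8.63 on HCD (median difference -0.13). Of these, 1 of 8 genes passed the adjusted p, against 1.7% of all genes. The mean level of the stellate cell and fibroblast markers was 8.22 to 8.36 against 8.37 to 8.43 (median -0.11). Both lists were lower without overlap, with 0 of 8 genes above HCD in each. The part of these marker differences, those of macrophages and neutrophils included, in the Il1a and Il1b differences was not tested.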

How the data were processed

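Expression was measured on 45 Affymetrix arrays (3 tissues, 5 diets, 3 pools each). The deposited values are log2 expression: the authors corrected signals by RMA, normalized them by quantiles, reduced batch effects with ComBat and kept 1 probe set per gene, the one with the highest interquartile range. Batches and software versions are not given in the sources used here, so batches could not be entered as a term. The table held 22080 genes, 13 of which carried date-like names. Arrays of a group correlated at 0.985 or more.

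All 45 arrays were fitted together with limma 3.58.1 in R 4.3.3, with 1 mean per tissue and diet (30 residual and 7.34 prior degrees of freedom), and p-values were adjusted over all genes within each of 30 diet comparisons, 3 tissue comparisons and 12 differences between tissues. The code was tested on simulated data. An exact permutation test of 3 arrays against 3 cannot go below p = 0.1. The number of arrays limits the precision.

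Same-lettered pools deviated together (every r over 0.1) in 3 of 30 pairs of diet groups and in 0 of 15 pairs of tissues, and the labels do not tie letters across groups.

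The members, and the lists of pathway, immediate early and cell type genes, were chosen with earlier results of these data known. Named in the text by rule are all members, genes of the lists that were DE where a member was (at most 10 per comparison, by size, given here for the comparisons with HCD) and the 5 genes most like each DE member, of which 1 is not reported here. Ptgs2, Nfkbiz, Irak4 and Il23a fall outside the rule. Promoters were searched and figures drawn with Python 3.11.15, pandas 2.3.3 and matplotlib 3.10.9. The alternatives tried were a fit per tissue or on the compared groups, pools A and B only, a filter on dim genes, a replicate block, quantiles normalized within each tissue, trend and robust moderation, array weights, calls on the adjusted p alone, and leaving out each array.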

Additional observations from a re-analysis of the deposited data

Results flagged for a closer look

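Of the 10 members and 12 differences between tissues, 3 passed the test of the difference itself. Il1r1 under Gl-1, against HCD, differed more in liver than in kidney, by 0.65 on the log2 scale (adjusted p 0.0297 from limma), and more in liver than in brain, by 0.70 (adjusted p 0.0213). Cxcl1 under Gl-2, against HCD, differed more in kidney than in brain, by 0.82 (adjusted p 0.0142). Leaving out 1 array, the 3 values ranged from 0.56 to 0.76, from 0.60 to 0.80 and from 0.72 to 0.94, with adjusted p of up to 0.152, 0.0968 and 0.0881. With pools A and B only, the Il1r1 values were 0.60 (adjusted p 0.177) and 0.64 (adjusted p 0.146).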

How the results depend on the processing

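No single-gene difference past the adjusted p changed its sign under any alternative. Several alternatives leave the difference itself unchanged and a count cannot reverse, so this says little, and calls were lost as follows. In the comparison of Gl-2 with HCD in liver, the members DE (2) were 1 when only liver arrays were fitted, where Il1a had an adjusted p of 0.101, and 0 both in a fit on the 2 groups and with pools A and B only. The count for Gl-2 against Gl-1 in liver (1) was 0 in the fit on liver arrays, on the 2 groups and with pools A and B, and 3 on the adjusted p alone. For Gl-2 against Control in liver (1) it was 0 on the 2 groups and 3 on the adjusted p alone. For Gl-1 in liver it was 0 with pools A and B against HCD and against Control, 0 against Control with quantile normalization within tissue (Il1r1 at 0.70, short of the threshold), and on the adjusted p alone 2 against Control and 1 against simvastatin. For Gl-2 in kidney, the count against Control (1) was 0 on the 2 groups, with pools A and B and with array weights, a fit that stopped before its tolerance was reached, and against HCD it was 3 on the adjusted p alone. On Control, calls by the adjusted p alone were 6 between liver and kidney, 8 between liver and brain and 5 between kidney and brain. Leaving out 1 array, counts ranged from 0 to 2 for Gl-2 against HCD in liver and in kidney and against Control in liver, from 1 to 2 for Gl-2 against Gl-1 in liver, from 0 to 1 for Gl-1 against HCD, Control and simvastatin in liver and for Gl-2 against Gl-1 and Control in kidney, and from 4 to 6 between liver and brain. With the replicate block the counts were those of the fit without it, 2 for Gl-2 against HCD in liver and 1 in kidney, and the pairing of letters changed no call. Trend and robust moderation and the filter on dim genes, which removed Il6 and Cxcl2, changed no count either. The tissue comparisons under alternatives were added after the data were seen. Some alternatives used fewer arrays, and the causes of the lost calls were not tested. With 2 separate pools per group, differences near 0.7 stay close to the threshold. Low signals of Il6 and Cxcl2, of Il1a in kidney and brain and of Il1b and Tnf in brain limit what could be seen. The same holds for Il1b and Tnf in kidney, with medians of 5.52 and 5.79, below or about the 25th percentile of all values.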
